A study of Schistosoma mansoni with 6 samples.

Results

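Cytosolic ribosomal protein genes were followed in heads and tails of adult female *Schistosoma mansoni*. Members were the genes with reads whose annotation contained the words ribosomal protein, without names marked as mitochondrial, 39S or 28S and without kinases, methyltransferases and acetyltransferases. This gave 75 of the 10831 genes in the deposited table, of which 9947 had a mean above 0. Of the 140 genes annotated with these words, 61 were left out by mitochondrial names and 4 as kinases. None of the members was listed at 0 in either group.

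Heads were fragments cut anterior to the ovary and tails were fragments cut posterior to it. Both came from females separated from males after recovery from mice 7 to 8 weeks p.i., and each RNA extraction used about 100 fragments. Each group had 3 libraries from independent extractions, and the labels name no treatment, strain or genotype. The posterior of the female is mostly vitellaria, the follicles that make the yolk cells supplied to each egg, so the comparison asks which transcripts differ between a vitelline-rich part of the body and the anterior part. Tails and heads remain mixed tissues.

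Ribosomes translate mRNA in the cytosol and are built from a large (60S) and a small (40S) subunit, each an rRNA scaffold carrying many proteins. Ribosomal proteins are used in nearly fixed proportions, and their genes are among the most highly expressed in cells that grow or secrete. Vitelline cells fill with eggshell precursors and yolk as they mature, and electron microscopy has long described abundant rough endoplasmic reticulum in them.

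The values are authors' means per group, in reads per gene divided by a library size factor and averaged over 3 libraries, and are called normalized counts below. They carry no replicate error, so ratios between abundant genes are descriptions of these means and were not tested. Reads of single libraries could be solved from the means of low genes only, which gave the size factors. Depth was estimated as size factor times the sum of the group's means. It was 25.4 to 31.1 M reads in head libraries and 5.25 to 11.8 M reads in tail libraries. Markers of other tissues were taken from genes that the paper reports as tail-enriched or head-enriched in these same data. Their direction was therefore known in advance and is no independent check of the cut. All 9 vitelline markers were higher in tails, with a summed level of 8155 normalized counts in heads against 760040 in tails, and all 4 markers of the oesophageal gland were higher in heads, with sums of 79463 and 412. In such bulk samples, fewer cells of a type and less RNA per cell cannot be told apart, and the part of these markers' tissues in the ribosomal protein levels was not tested.

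Transcripts of ribosomal proteins were several-fold more abundant in tails. All 75 members had a higher mean in tails than in heads, although L19 was lower in tails under both other scalings tried. The share higher in tails was 48.7% of all genes with a mean above 0 and 65.9% of genes with a mean of at least 1000. Of the members, 72 were at least 2-fold higher in tails. Of all genes with a mean above 0, 14.8% were at least 2-fold higher in tails and 26.3% were at least 2-fold higher in heads, and no member was among the latter. Most members are abundant, and 71 had a mean of 1000 or more over both groups. Of these, 69 were at least 2-fold higher in tails, against 17.5% of all genes of that level.

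The median log2 ratio of members, tail over head, was 1.84, a 3.57-fold difference, with quartiles of 1.70 and 1.99. The median was −0.04 over all genes with a mean above 0. It was 0.31 over the 3015 other genes with a mean of at least 1000, with quartiles of −0.26 and 0.76. For the 69 abundant members past 2-fold, log2 ratios ran from 1.31 to 2.36 with an SD of 0.22. By size, 18 members were at least 4-fold higher in tails, 51 had a log2 ratio from 1.5 to under 2, 3 had one from 1 to under 1.5, and 3 were under 2-fold.

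**Figure D1:**
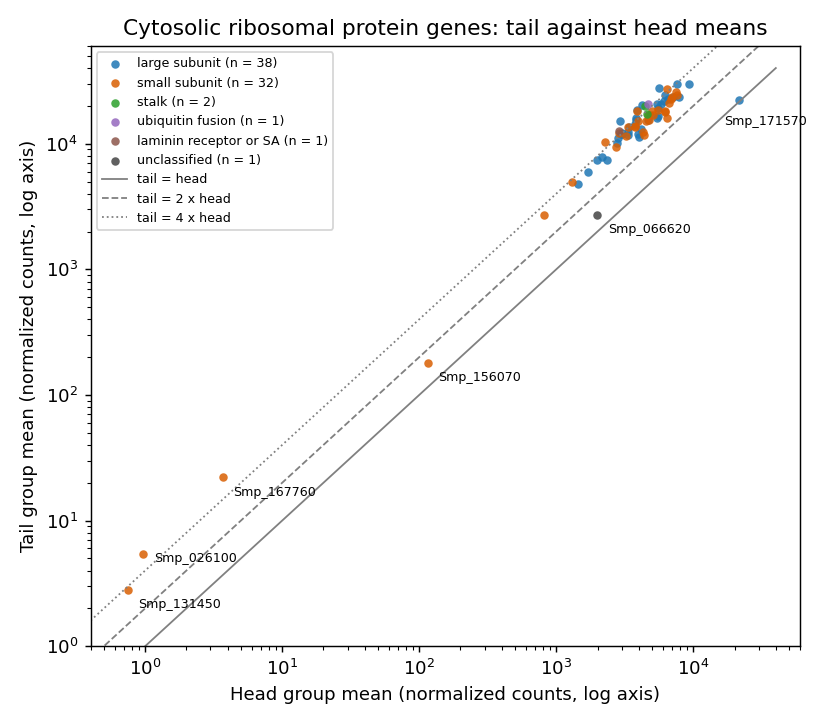
Group means of the 75 ribosomal protein genes, heads on the x axis and tails on the y axis, in normalized counts on log axes, with 1 point per gene coloured by subunit and lines at equal, 2-fold and 4-fold levels. Most points lie between the 2-fold and 4-fold lines or just above the latter, and Smp_171570, Smp_066620 and Smp_156070 lie under the 2-fold line.

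The module as a whole took a larger share of the transcriptome in tails. Member means summed to 333596 normalized counts in heads against 1134470 in tails, which was 2.73% of the head total and 6.90% of the tail total. Abundant members ranged from 817 to 21553 in heads, with a median of 4268, and from 2690 to 29999 in tails, with a median of 15415. The upper end in heads was L19 (Smp_171570) alone, and without it the highest head mean was 9333. Counts are not divided by transcript length here, so these ranges mix level and length.

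Group totals were not equal. Tail means summed to more than head means, with a log2 ratio of totals of 0.43, and the median log2 ratio of all genes with a mean of at least 100 was 0.14. With totals set equal, the members' median log2 ratio was 1.41, and 71 of 75 remained at least 2-fold higher in tails, against 9.29% of all genes. With the median of the genes with a mean of at least 100 set to 0, it was 1.70, and the count was 72, against 12.5% of all genes.

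Both subunits had similar ratios. The 38 large subunit members had a median log2 ratio of 1.84 (quartiles 1.71 and 1.98), and the 32 small subunit members had one of 1.77 (quartiles 1.69 and 1.93). Large subunit members summed to 184082 normalized counts in heads against 614159 in tails, and small subunit members to 130972 and 446997. The difference between the subunits was not tested.

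The highest ratios of abundant members were found in the large subunit. L31 (Smp_050280), a protein at the exit of the peptide tunnel, had a mean of 2934 in heads against 15101 in tails (log2 ratio 2.36). L10a (Smp_042090), the protein of the mobile L1 stalk, had 5627 in heads against 27601 in tails (log2 ratio 2.29). L26 (Smp_098960), also at the tunnel exit, had 4194 against 20194 (log2 ratio 2.27). These 3 genes had the highest ratios of any abundant member. L36 (Smp_063300) had 3875 normalized counts in heads against 18383 in tails (log2 ratio 2.25).

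Proteins near the catalytic centre and the factor-binding and subunit-bridging sites had ratios from near the upper quartile down to under the lower one. L3 (Smp_047200), which reaches towards the peptidyl transferase centre, had 9333 normalized counts in heads against 29615 in tails (log2 ratio 1.67). L8 (Smp_051260), also near that centre, had 7831 in heads against 23420 in tails (log2 ratio 1.58). L10 (Smp_013200, annotated l10e), a protein of the tRNA corridor, had 7629 in heads and 29999 in tails, a log2 ratio of 1.98. L12 (Smp_012750), at the base of the stalk that engages translation factors, had 5432 against 15910 (log2 ratio 1.55). L24 (Smp_001830), which forms a bridge to the small subunit, had 4017 against 11213 (log2 ratio 1.48).

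Genes for the 5S rRNA-binding proteins had equal ratios, and genes for proteins of the peptide tunnel and its exit differed among themselves. L5 (Smp_200920), which carries the 5S rRNA into the subunit, had 3008 normalized counts in heads compared with 12146 in tails (log2 ratio 2.01). Its partner L11 (Smp_050940) had 3827 compared with 15415 (log2 ratio 2.01). L4 (Smp_153790), whose loop lines the tunnel, had 7163 compared with 23422 (log2 ratio 1.71), and L17 (Smp_024850), near its exit, had 4868 compared with 16961 (log2 ratio 1.80). L23a (Smp_003410), a docking site for the signal recognition particle at the exit, had 5554 compared with 16693 (log2 ratio 1.59), while L35 (Smp_004940), at the same rim, had 2996 compared with 11960 (log2 ratio 2.00). L31 and L26, named above, lie at that exit too. The genes named here for the exit covered log2 ratios from 1.59 to 2.36, and no full list of proteins at that site was made.

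Among the other large subunit genes, L30 (Smp_044580), which in yeast also binds its own transcript, had 3804 and 15898 normalized counts (log2 ratio 2.06). L38 (Smp_058720) had 1980 and 7366 (log2 ratio 1.90). L22 (Smp_085300), which is dispensable for growth in yeast, had 2363 and 7408 (log2 ratio 1.65). L21 (Smp_022560) had 1445 and 4802 (log2 ratio 1.73).

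The acidic stalk proteins recruit the GTPases of translation to the large subunit. P2 (Smp_029820) had 4463 normalized counts in heads against 20024 in tails (log2 ratio 2.17). P1 (Smp_041980, annotated lp1) had 4561 in heads against 17370 in tails (log2 ratio 1.93). L40 (Smp_089430), which in other eukaryotes is made as a fusion with ubiquitin and is annotated as such here, had 4666 in heads against 20676 in tails (log2 ratio 2.15). S27A (Smp_017280), made as a ubiquitin fusion in other eukaryotes too, had 4647 against 16930 (log2 ratio 1.87). These 4 were above the members' median of 1.84, while L12 at the stalk base (1.55) and S30 (1.78, described below) were under it.

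Small subunit genes spread over the same range. S18 (Smp_074780), a protein of the subunit's head, had 3859 normalized counts in heads against 18320 in tails (log2 ratio 2.25). S27 (Smp_041650), a zinc-binding protein, had 2266 in heads against 10325 in tails (log2 ratio 2.19). The gene annotated as ribosomal protein saa (Smp_076740) had 2852 against 12515 (log2 ratio 2.13). S6 (Smp_053130), the substrate for which S6 kinases are named, had 6466 against 27236 (log2 ratio 2.07).

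Others lay close to the median. S12 (Smp_060090) had 3951 normalized counts in heads compared with 15100 in tails (log2 ratio 1.93). S30 (Smp_014650), made with a ubiquitin-like domain in mammals, had 2742 compared with 9410 (log2 ratio 1.78). S19 (Smp_174950), required for maturation of the 40S subunit in yeast and human cells, had 4515 compared with 15080 (log2 ratio 1.74). S14 (Smp_053830), at the platform of the subunit, had 4751 compared with 15401 (log2 ratio 1.70). S13 (Smp_096750) had 817 in heads and 2690 in tails, with a log2 ratio of 1.72. At the upper end S21 (Smp_146190) had 2874 compared with 12144 (log2 ratio 2.08), and S25 (Smp_213130), used by some viral internal ribosome entry sites, had 3323 compared with 13645 (log2 ratio 2.04).

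Low ratios were found in the small subunit as well. S9 (Smp_180000), which lines the mRNA entry channel, had 6406 normalized counts in heads against 15935 in tails (log2 ratio 1.31), the lowest of the 72 members past 2-fold. With totals set equal its log2 ratio was 0.89, under 2-fold. S10 (Smp_066890) had 6251 against 17893 (log2 ratio 1.52), and S4 (Smp_011570) had 6187 against 18119 (log2 ratio 1.55). A pair of genes annotated only as small subunit proteins were close to these. Smp_031310 had 4338 in heads against 11768 in tails (log2 ratio 1.44), and Smp_074470 had 4268 against 12353 (log2 ratio 1.53). S3a (Smp_073880) had 7665 against 24476 (log2 ratio 1.67). All of these apart from S9 stayed past 2-fold with totals set equal.

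**Figure D2:**
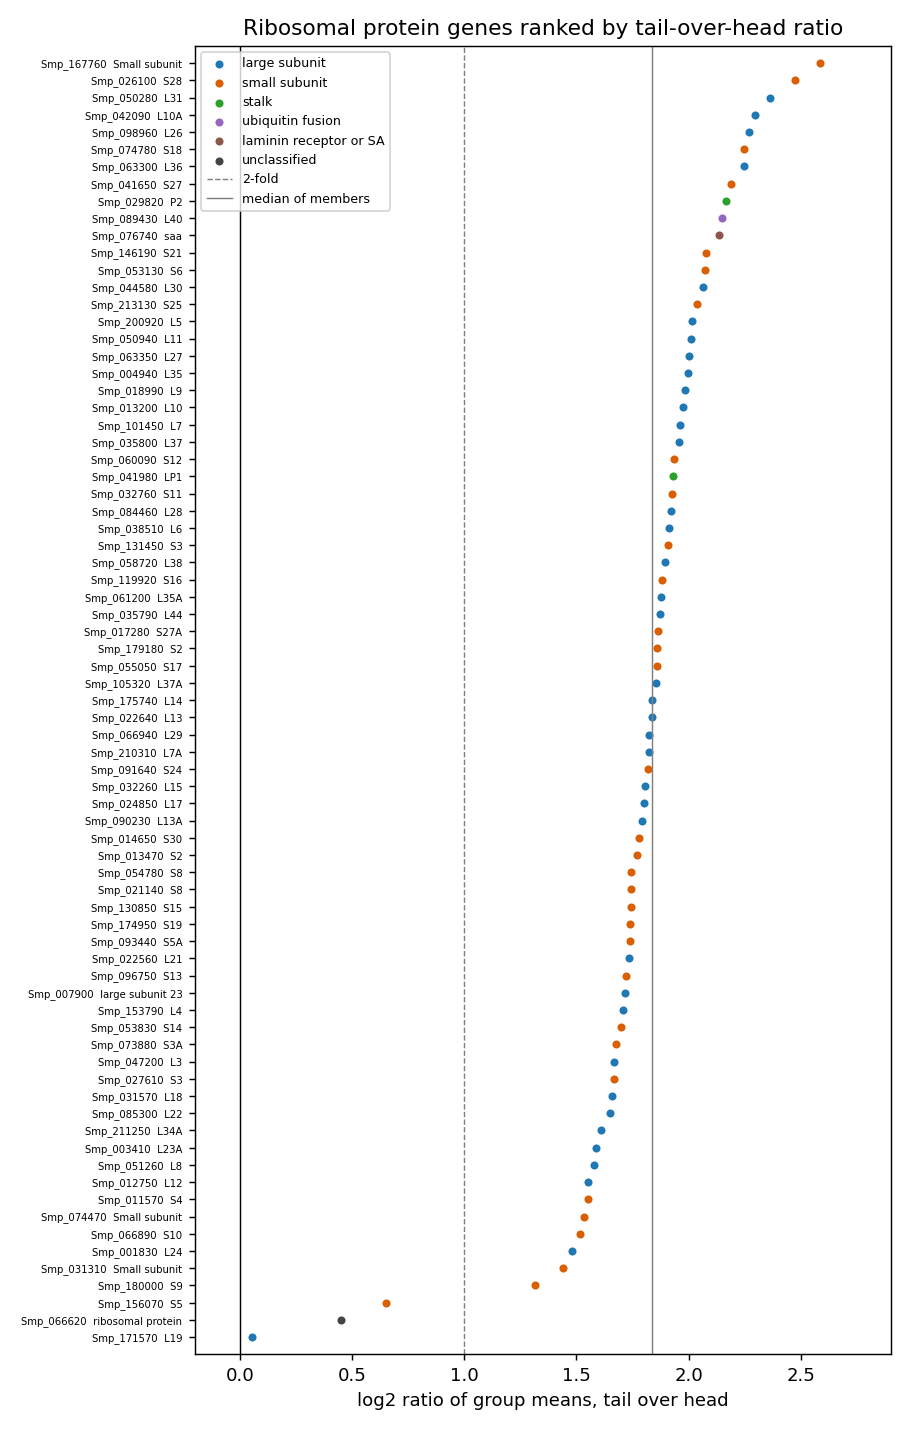
The log2 ratio of group means, tail over head, of each of the 75 members, ranked and coloured by subunit, with lines at 0, at 2-fold (dashed) and at the members' median of 1.84 (solid). Of the 75 genes, 51 lie from 1.5 to under 2, and 3 genes, with 0.06, 0.45 and 0.65, lie apart below 2-fold.

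Several names were carried by more than one gene, and reads could be split between such genes if their sequences are near identical. No sequences were compared, so it is not known whether genes sharing a name encode the same protein. The genes annotated as S8 had the same ratio. Smp_054780 had 6984 normalized counts in heads against 23362 in tails, and Smp_021140 had 5069 and 16952, each with a log2 ratio of 1.74. The genes carrying the name S2 were close too, with a log2 ratio of 1.86 for Smp_179180, annotated as the eukaryotic and archaeal type, and of 1.77 for Smp_013470. For S3, a protein at the mRNA entry channel, the main gene Smp_027610 had 6602 in heads against 20945 in tails (log2 ratio 1.67), while Smp_131450 had only 0.75 and 2.80.

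The gene annotated as L19 had the lowest ratio of all members. L19 forms a bridge between the subunits. Smp_171570 had a mean of 21553 in heads against 22394 in tails (log2 ratio 0.06), or 1.04-fold. Among the members it ranked 1 by head mean and 13 by tail mean. Its direction depended on the scaling, with a log2 ratio of −0.08 when the median of genes with a mean of at least 100 was set to 0 and of −0.37 with totals set equal. Without this gene, the median log2 ratio of the other 74 members was 1.84.

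The other members under 2-fold carried unspecific or uncertain names. Smp_066620, annotated only as a ribosomal protein, had 1999 normalized counts in heads against 2731 in tails (log2 ratio 0.45). With totals set equal this ratio was 0.02. Smp_156070, annotated as small subunit ribosomal protein S5, had 115 ± 5.81 normalized counts in heads and 181 ± 26.5 in tails (SD, n = 3 libraries each), while another gene with an S5 name, Smp_093440 (annotated s5a), had 6843 and 22835 (log2 ratio 1.74). Smp_066620 and Smp_156070 were closer in ratio to the mitochondrial ribosomal proteins, described below, than to the members' median.

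For 4 members of low level, whole reads of single libraries could be recovered from the group means, which gives an error over libraries. They were tested by limma on log2(normalized count + 1) together with all 2906 genes that had recovered reads in both groups and at least 10 reads. Of those genes, 61.7% passed an adjusted p of 0.05 in either direction (1792 genes, 537 of them higher in tails), and 2 of the 4 members did. These are low genes by selection, and neither the test nor its errors carry over to the abundant members.

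Smp_156070 was modestly higher in tails with the authors' size factors. The log2 ratio of its group means was 0.65. It was 0.51 with the median of genes with a mean of at least 100 set to 0, and 0.22 with totals set equal. The test below used the authors' size factors only. In order of decreasing size factor, its normalized counts were 112, 112 and 122 in heads and 199, 193 and 150 in tails. Every tail library was above every head library. How many of all tested genes were separated in this way was not counted, and 61.7% of all tested genes passed the test. The log2 difference was 0.64 ± 0.17 (SE), with an adjusted p of 0.0124 from limma. The call was lost at an adjusted p of 0.0509 from limma when the head library of size factor 2.35 was left out.

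Smp_167760, annotated only as a small subunit protein, had the highest ratio of all members at a very low level. It had 9, 12 and 5 reads in the head libraries, or 3.53, 5.11 and 2.40 normalized counts. In the tail libraries it had 11, 8 and 9 reads, or 15.3, 22.7 and 28.2 normalized counts. The groups did not overlap, which was likewise not set against all tested genes. The log2 difference was 2.30 ± 0.42 (SE), with an adjusted p of 0.00255 from limma.

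The remaining low members rested on few reads. The gene annotated as S28 (Smp_026100) had 2, 5 and 0 reads in head libraries and 1, 3 and 2 in tail libraries, and its groups overlapped in normalized counts. Its log2 difference of 1.63 ± 0.65 (SE) did not pass, with an adjusted p of 0.0602 from limma. The gene passed, at 0.0142 from limma, only with the tail library of size factor 0.72 left out. With any other library left out, the adjusted p from limma was between 0.0563 and 0.194. The second S3 gene (Smp_131450) had 0, 3 and 2 reads in heads and 4, 1 and 0 in tails. Its log2 difference of 0.83 ± 0.72 (SE) had an adjusted p of 0.336 from limma. The gene passed, at 0.0359 from limma with a log2 difference of 1.61, only without the tail library of size factor 0.32. That library had 0 reads of this gene. With any other library left out, the adjusted p from limma was between 0.326 and 0.767, and the log2 difference fell as low as 0.25.

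**Figure D3:**
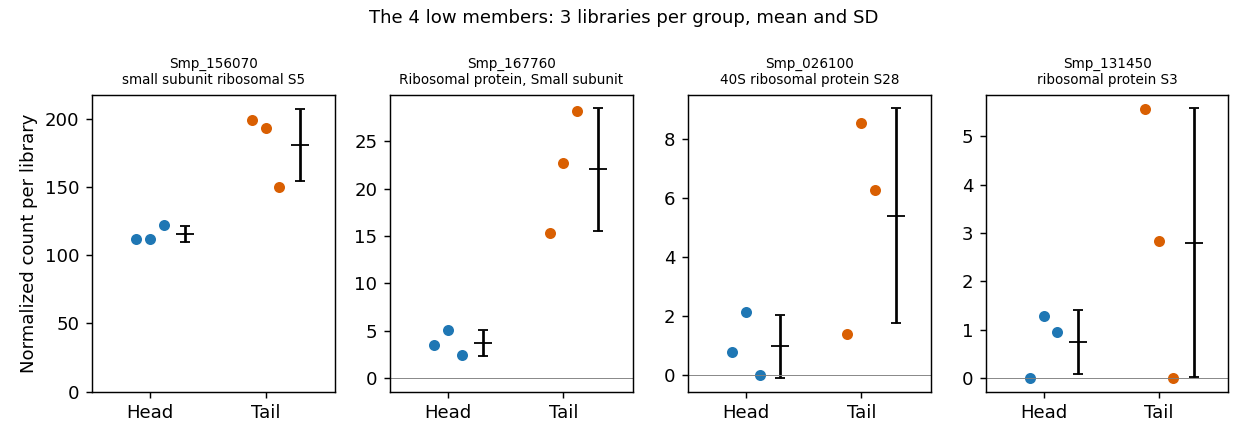
Normalized counts of the 4 low members in the 3 head (blue) and 3 tail (orange) libraries, in order of decreasing size factor, with the group mean and SD as a black mark and bar. Tail and head points are separate for Smp_156070 and Smp_167760 and overlap for Smp_026100 and Smp_131450.

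How far single libraries of the abundant members differ is not known from group means. For recovered genes with a head mean of 100 to 200, the median SD of log2 normalized counts over the 3 head libraries was 0.11 (855 genes). For those with a tail mean of 500 to 1000 it was 0.22 over the 3 tail libraries (1578 genes). These values describe other genes, of lower level than most members.

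Other parts of the translation machinery were also higher in tails, with lower medians. Elongation factors, which bring tRNAs to the ribosome and move it along the mRNA, were followed in a list of 10 genes, 8 of them at least 2-fold higher in tails, with a median log2 ratio of 1.5. The list includes a pair of genes annotated as elongation factor 2 kinases and 1 annotated as initiation factor 5A (Smp_039400, log2 ratio 1.68), a protein that also acts in elongation. Its highest ratios, of 2.33 for an elongation factor 1 gene (Smp_083410) and 2.06 for elongation factor 1 beta (Smp_030690), were above the members' upper quartile. Elongation factor 1-alpha (Smp_099870), which delivers tRNAs, had 60008 normalized counts in heads against 142280 in tails (log2 ratio 1.25). Elongation factor 2 genes Smp_143140 and Smp_143150, which carry out translocation, had log2 ratios of 1.44 and 1.37. Of the poly(A) binding protein genes, Smp_024140 had 23125 against 51364 (log2 ratio 1.15) and Smp_007630 had 2091 against 3174 (log2 ratio 0.60).

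The homologue of the receptor for activated C kinase (Smp_102040), a scaffold bound to the small subunit in other eukaryotes, is not named as a ribosomal protein and so was no member. It had 7637 normalized counts in heads against 29827 in tails (log2 ratio 1.97), inside the members' quartiles.

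Genes of ribosome assembly and of the mitochondrial ribosome had lower ratios. Of 51 genes annotated to ribosome biogenesis or the nucleolus, where rRNA is made and processed, 22 were at least 2-fold higher in tails and 4 were at least 2-fold higher in heads, with a median log2 ratio of 0.86. Fibrillarin (Smp_044280), which methylates rRNA, had 880 in heads against 3751 in tails (log2 ratio 2.09). The 4 genes higher in heads were all annotated as nucleolar protein c7b or c7c. Of 61 mitochondrial ribosomal proteins, which serve translation inside mitochondria, 60 had a higher mean in tails and 13 were at least 2-fold higher, with a median log2 ratio of 0.80 and a range from −0.01 to 1.41. Of the 75 cytosolic members, 71 had a higher ratio than any of these mitochondrial genes. These differences between groups of genes were not tested.

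**Figure D4:**
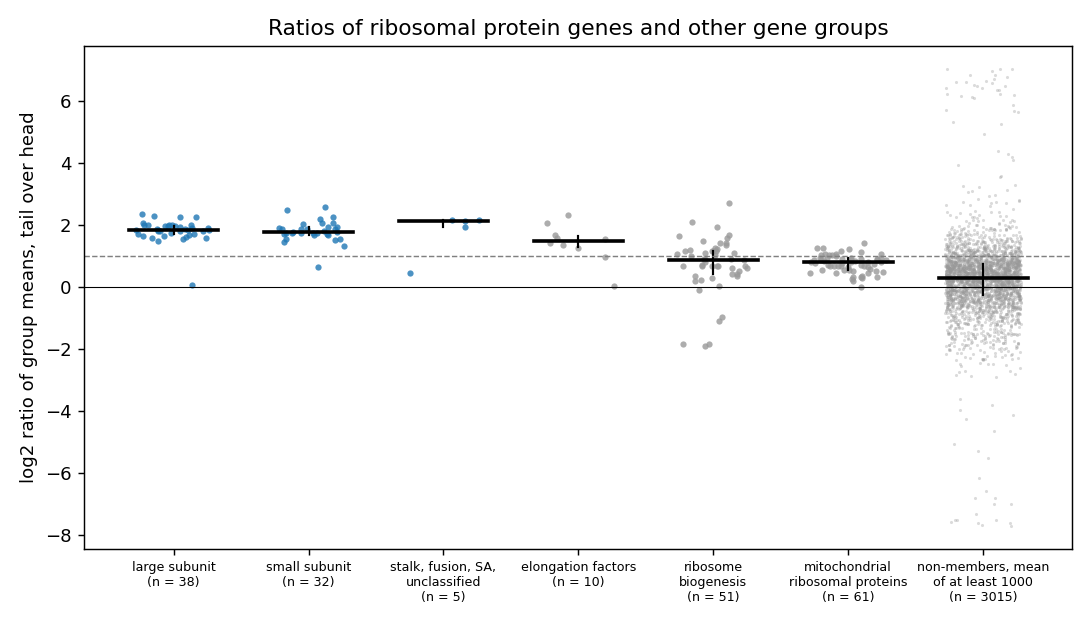
Log2 ratio of group means, tail over head, of ribosomal protein genes by subunit (blue) and of other gene groups (grey), 1 point per gene, with the median as a thick bar, the quartiles as a vertical line and 2-fold as a dashed line. Medians are 1.84 and 1.77 for the subunits, 1.5 for elongation factors, 0.86 for ribosome biogenesis, 0.80 for mitochondrial ribosomal proteins and 0.31 for other genes with a mean of at least 1000.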

How the data were processed

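RNA-seq libraries (TruSeq Stranded RNA LT) were made from 3 head and 3 tail samples. The authors aligned reads by STAR 2.5.0b with the WormBase ParaSite v4 genome and annotation. The deposited signal values are reads per gene over DESeq 1.22 size factors, averaged by the authors within each group. How reads were counted per gene is not given in the sources. The 4 columns of the authors' own comparison (fold change, its log2, p-value, adjusted p-value) were not used.

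Members and gene lists were chosen by annotation, with earlier results of these data known. Log2 ratios of group means were computed with no pseudocount in Python 3.11.15. A ratio of at least 2-fold was counted, with no test, since a mean has no replicate error. Alternatives were a minimum of 1.5-fold, scaling to equal totals or to the median of genes with a mean of at least 100, 10 added to both means, a level filter at 100, and leaving out bacterial-type and derived names.

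Because each mean combines whole reads of 3 libraries through fixed size factors, reads of single libraries were solved for head means under 200 and tail means under 1000. All 3407 and 6441 such genes had 1 solution. These reads were tested with limma 3.58.1 with a mean-variance trend and Benjamini-Hochberg adjustment. The solver and the test were tested on simulated data. Libraries are named by size factor, since the columns carry no replicate numbers. Depth is size factor times group total.

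The members named are the 10 highest and 10 lowest by ratio with a mean of at least 10, the 5 highest by head mean, those with a mean under 10, stalk, ubiquitin fusion and SA-type names, and shared names. Other members were named for their roles after their values were seen. Of the members, 61 matched a locus tag of the RefSeq table of assembly ASM23792v2, used only for neighbours. No sequences are shown.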

Additional observations from a re-analysis of the deposited data

How the results depend on the processing

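Of the 75 members, 70 to 72 were at least 2-fold higher in tails under both scalings and with 10 added to both means, and no member was 2-fold higher in heads. With 10 added the count was 70, against 10.8% of all genes, and the low genes Smp_026100 and Smp_131450 were under 2-fold. With a level filter at 100 it was 69 of 72 members, against 13.9% of the genes kept. At a minimum of 1.5-fold, 73 members were counted, against 26.7% of all genes. Leaving out bacterial-type and derived names removed no member, so that alternative tested nothing. The members' median log2 ratio moved to 1.70 with the median of genes with a mean of at least 100 set to 0 and to 1.41 with equal totals, by construction of the shift. The members' share of normalized counts was 3.47% in heads and 10.1% in tails without the 100 other genes with the highest tail mean.

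No alternative changed the direction of a named member past 2-fold. No paired analysis was possible because the deposited columns are group means and the recovered libraries carry no replicate numbers. For Smp_167760, leaving out each library in turn kept the adjusted p from limma between 0.00242 and 0.0165, and a pseudocount of 0.5 changed no call of the 4 low members. Abundant members have no error over libraries here, and tail libraries, with an estimated 5.25 to 11.8 M reads, limit the low ones.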

Other observations

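Of the 459 genes with a mean of at least 5000, 63 were members (13.7%), and of the 189 of these at least 2-fold higher in tails, 62 were members (32.8%). Of the 79 genes with a mean of at least 1000 and a log2 ratio within the members' quartiles, 36 were members (45.6%), a share that the choice of the band favours. Of the 182 genes at or above the lower quartile, 53 were members (29.1%), so most genes with such ratios were no members.

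The other genes of at least 5000 in that band, chosen after their values were seen, included a pair that act where secreted proteins enter the endoplasmic reticulum. The translocon associated protein subunit gamma (Smp_074700) had 2333 normalized counts in heads against 8328 in tails (log2 ratio 1.84). The translocation associated membrane protein 1 (Smp_075870) had 3164 against 10849 (log2 ratio 1.78). Mitochondrial genome transcripts lay there too, among them cytochrome b (Smp_900070), with 17648 in heads and 67631 in tails and a log2 ratio of 1.94.

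Of 53 members placed on a named chromosome of the RefSeq assembly ASM23792v2, 1 pair were neighbouring protein-coding genes, L37 (Smp_035800) and L44 (Smp_035790). L37 had 2843 normalized counts in heads against 11037 in tails (log2 ratio 1.96), and L44 had 2756 against 10087 (log2 ratio 1.87).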
